A study of Mus musculus with 7 samples.

Results

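Transcripts of 6 dual-specificity phosphatase genes, Dusp1, Dusp2, Dusp4, Dusp5, Dusp6 and Dusp16, were followed through mouse neutrophils. The cells came from 3 healthy tissues, 3 inflamed sites and blood of arthritic mice. The genes were chosen by name, with earlier results of these data known, 6 of the 16505 genes with a count in the series, and cells were chosen without reference to them. All mice were male C57BL/6J mice without a transgene or deletion, and neutrophils were sorted as CD11b+ Ly6G+ PI-negative cells and captured in droplets, in which each transcript molecule was tagged with a unique molecular identifier (UMI). Bone marrow, peripheral blood and spleen of untreated mice were each profiled in 2 runs, in mice aged 6 weeks in run 1 and 8 weeks in run 2. By the study's methods each library held cells of 3 mice, and bone marrow, blood and spleen within 1 run were taken from shared mice. The p-values therefore measure the spread between pools, not between single mice. A separate inflammation library, from mice aged 8 weeks, held 5 conditions marked by hashtag oligonucleotides, each again a pool of 3 mice. These were healthy blood, blood and joint lavage on day 7 after transfer of arthritogenic K/BxN serum (given on days 0 and 2), and peritoneal lavage and lung lavage 3 h after 25 ng of IL-1β at that site. Each pool was a single sample. Between arthritis and IL-1β, and between the inflamed sites and healthy blood, site, stimulus and time cannot be told apart. Lung and peritoneum shared the IL-1β dose and time, and joint and blood of arthritic mice the serum and day. By the study's methods the lung was dosed intranasally under anesthesia and the peritoneum by injection, with no anesthesia stated. Site, route and anesthesia thus cannot be told apart between these pools.

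Healthy neutrophils were taken as cells with at least 3% of their UMIs from S100a8 and S100a9, and cells of the inflammation library as those whose deposited annotation named a neutrophil reference population. This kept 17607 of 21763 cells, 12755 healthy and 4852 from the inflammation library. All 11 neutrophil markers checked, among them Csf3r and Cxcr2, had UMIs in each of the 11 pools, although S100a8 and S100a9 are among them and chose the healthy cells, so that for these genes the check was fixed in advance. Summed UMIs per pool ran from 942688 to 10293966, and the median cell held 775 to 2698.5 UMIs in the healthy libraries and 2527 to 3681 in the inflammation library, which was made with a later version of the reagents. Levels are therefore given as UMIs per 1000000 UMIs of the chosen cells (CPM), with exact Poisson 95% intervals where one is printed. Groups were compared within the healthy libraries or within the inflammation library, except in descriptions. These were the spread over pools of healthy blood, the shares and summed levels of the members, and the likeness of genes over the 11 pools. Library pairs shared 0 to 36 cell barcodes.

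Dual-specificity phosphatases of this group remove the phosphates from both the threonine and the tyrosine of the activation loop of MAP kinases and so switch off ERK, p38 and JNK. Several of them are transcribed in response to the very kinases they inactivate, which makes them negative feedback genes and, for some, immediate early genes. Dusp1, Dusp2, Dusp4 and Dusp5 encode nuclear enzymes, Dusp6 encodes a cytoplasmic enzyme selective for ERK, and Dusp16 encodes an enzyme that acts on JNK and p38. In myeloid cells Dusp1 is known as a brake on p38 and on cytokine output after microbial stimuli.

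Promoter sequences are shown for 4 members described at length in the results: Dusp1, the most abundant and called between healthy tissues, Dusp5 in the arthritic joint, and Dusp2 with Dusp16 after IL-1β. Each line gives bases -250 to -51 before the RefSeq start (GRCm38.p6, the mm10 assembly), 5′ to 3′ on the gene's strand. Capitals mark motif matches on either strand. The windows lie at chr17:26508523-26508722 (Dusp1, minus strand), chr2:127335909-127336108 (Dusp2, plus), chr19:53528895-53529094 (Dusp5, plus) and chr6:134792679-134792878 (Dusp16, minus). The Dusp16 window lies inside the gene's own span, chr6:134715468-134807063. It thus precedes an internal start, and bases before the outermost start of Dusp16 were not searched.
Dusp1: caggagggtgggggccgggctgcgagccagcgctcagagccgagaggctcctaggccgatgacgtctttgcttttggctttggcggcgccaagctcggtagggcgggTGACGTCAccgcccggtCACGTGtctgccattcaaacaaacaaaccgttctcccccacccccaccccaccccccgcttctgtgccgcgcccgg
Dusp2: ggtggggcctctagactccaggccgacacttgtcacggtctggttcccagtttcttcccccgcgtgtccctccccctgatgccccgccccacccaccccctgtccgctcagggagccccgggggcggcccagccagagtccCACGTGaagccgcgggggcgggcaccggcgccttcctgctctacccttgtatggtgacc
Dusp5: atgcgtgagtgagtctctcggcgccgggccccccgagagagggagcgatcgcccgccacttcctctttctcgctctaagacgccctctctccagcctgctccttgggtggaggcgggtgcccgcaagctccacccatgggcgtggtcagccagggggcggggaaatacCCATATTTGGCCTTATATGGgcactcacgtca
Dusp16: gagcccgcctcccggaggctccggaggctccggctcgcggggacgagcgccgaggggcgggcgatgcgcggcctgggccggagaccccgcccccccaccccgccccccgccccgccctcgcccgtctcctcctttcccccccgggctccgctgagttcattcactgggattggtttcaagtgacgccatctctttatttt

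RefSeq promoters were matched for 5 of the 6 members, all but Dusp4. The motifs searched were the cyclic AMP response element TGACGTCA, the AP-1 site TGANTCA, the E-box CACGTG, the CArG box bound by serum response factor and the kappaB site, with overlaps allowed. Dusp1 held 1 cyclic AMP response element, starting at base -143, and 1 E-box at -126. Dusp2 held 1 E-box at -109, and Dusp5 held 2 adjacent CArG boxes that start at -82 and -72. Over 32851 promoter windows of the same length, 0.828% held the cyclic AMP response element, 5.57% the AP-1 site, 4.34% the E-box, 1.16% the CArG box and 5.71% the kappaB site. No match to any of these letters was found in the windows of Dusp6 and Dusp16. The windows were rich in G and C, at 58% for Dusp6 to 73% for Dusp16 against a median of 51.5%.

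Dusp1 was the most abundant member by UMIs in 10 of the 11 pools. Because a UMI counts a molecule once whatever its length, the members' shares of their summed UMIs can be set side by side, although capture may differ between genes. Dusp1 held 59.2% of the summed UMIs in the peritoneum after IL-1β and 70.1% to 92.8% in 9 other pools. The exception was bone marrow of run 1, where Dusp6 held 62.4% and Dusp1 36.6%. Together the 6 genes summed to 102 CPM in bone marrow of run 1 and to 4462 CPM in the lung after IL-1β.

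**Figure D1:**
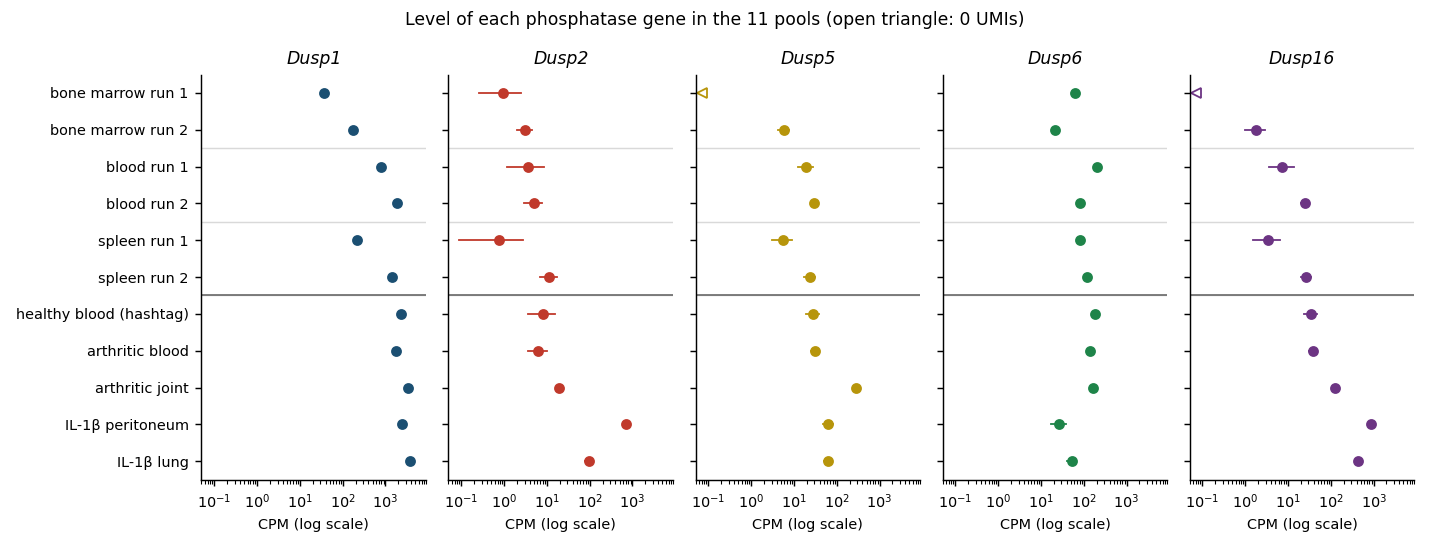
Level of 5 phosphatase genes (CPM, log axis) in the 11 pools, each point 1 pool of 3 mice with its exact Poisson 95% interval; a dark line parts the 6 healthy libraries from the 5 conditions of the inflammation library and open triangles mark 0 UMIs. Dusp1 spans 37.4 to 3820 CPM, Dusp2 and Dusp16 are highest in the peritoneum after IL-1β, Dusp5 in the arthritic joint, and Dusp6 is lowest in bone marrow of run 2 and the peritoneum.

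Dusp4, a nuclear phosphatase gene, had 0 UMIs in every pool, which allows up to 0.29 CPM in the arthritic joint, the deepest pool, and up to 3.18 CPM in the peritoneum, the shallowest, if a count of 0 is taken to allow 3 UMIs. The 3 tables of run 1 list only genes with a UMI and hold no row for Dusp4, so that its 0 there was inferred from the missing row, as were those of Dusp5 and Dusp16 in bone marrow of run 1. Outside the chosen neutrophils, 7 UMIs of Dusp4 were counted in cells of spleen run 2.

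The first comparison was between healthy tissues. Dusp1, Dusp5, Dusp6 and Dusp16 rose from bone marrow to blood, and Dusp1 and Dusp16 also rose from bone marrow to spleen, whereas no member was called between spleen and blood. Dusp1 measured 37.4 and 176 CPM in bone marrow (runs 1 and 2), 781 and 1852 CPM in blood and 215 and 1408 CPM in spleen. Both blood pools and both spleen pools were thus above both marrow pools, while spleen of run 1 was below both blood pools. Blood exceeded bone marrow by a log2 fold change of 3.62 (SE 0.342, n = 2 pools per tissue) with an adjusted p of 0.00223, and spleen exceeded bone marrow by 2.59 (SE 0.326) with an adjusted p of 0.0184, by edgeR's quasi-likelihood test with the run as a block. Between spleen and blood the log2 fold change of Dusp1 was -1.03 (SE 0.312, adjusted p 0.408, unadjusted p 0.0128).

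Dusp16, whose enzyme targets JNK and p38, was far rarer in healthy tissues. It had 0 UMIs in bone marrow of run 1 and 1.76 CPM in run 2, 7.35 and 25.3 CPM in blood, and 3.35 and 26.6 CPM in spleen. Every blood and spleen pool lay above both marrow pools, and the 2 runs of blood, or of spleen, lay further apart than blood and spleen of the same run. The fitted log2 fold changes were 3.85 (SE 0.529, adjusted p 0.00512) for blood and 3.6 (SE 0.534, adjusted p 0.0248) for spleen against bone marrow by edgeR, and they rest on 16 UMIs of Dusp16 in marrow. No UMI in marrow of run 1 allows up to 0.71 CPM there. With 1 library left out they ran from 3.59 to 6.91 in blood and from 3.34 to 6.66 in spleen, lowest without bone marrow of run 1 and highest without bone marrow of run 2, where marrow was left with 0 UMIs and the fitted value is no bound.

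Dusp5, a nuclear phosphatase gene selective for ERK, had 0 UMIs and 5.71 CPM in bone marrow, 19.1 and 30.2 CPM in blood, and 5.58 and 23.5 CPM in spleen. Blood did not overlap bone marrow, whereas spleen of run 1 did. Its log2 fold change by edgeR was 2.87 (SE 0.671, adjusted p 0.0251) in blood against bone marrow and 2.02 (SE 0.694, adjusted p 0.209) in spleen. Leaving out 1 library gave 2.22 to 8.30 in blood and 1.39 to 7.47 in spleen, again highest without bone marrow of run 2, which left 0 UMIs in marrow, and lowest without bone marrow of run 1.

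Dusp6, the cytoplasmic ERK phosphatase gene, measured 63.8 and 21.3 CPM in bone marrow, 200.0 and 83.6 CPM in blood, and 82.2 and 117 CPM in spleen, so that run 1 was the higher in marrow and blood, where Dusp1, Dusp5 and Dusp16 were higher in run 2. Within each run blood was above bone marrow, and the edgeR log2 fold change was 1.5 (SE 0.374, adjusted p 0.0309). Spleen against bone marrow gave 1.28 (SE 0.380, adjusted p 0.152). Dusp2, another nuclear phosphatase gene, stayed at 0.74 to 11.2 CPM in all 6 healthy libraries, from 2 to 28 UMIs per library, and its log2 fold change in blood against bone marrow was 1.01 (SE 1.16, adjusted p 0.576).

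**Figure D2:**
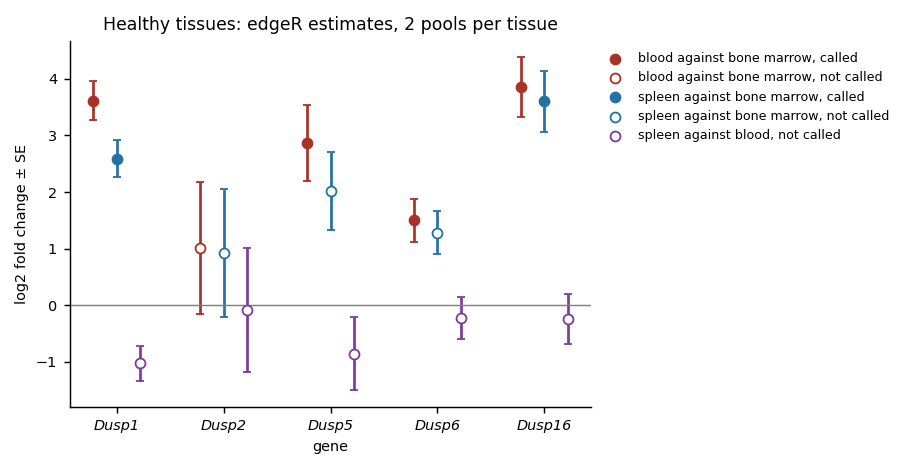
Fitted log2 fold change (with its standard error) of the 5 members that passed the filter on low counts in each comparison of healthy tissues, 2 pools per tissue; filled points had an adjusted p under 0.05. Blood and spleen lie above bone marrow for every gene shown, with filled points for 4 genes in blood and 2 in spleen, and no point is filled between spleen and blood.

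By number, 5 of the 6 members passed the filter on low counts and 4 of the 5 were called higher in blood than in bone marrow, against 21.7% of the 7809 genes tested called in either direction (11.7% higher and 9.94% lower). In spleen against bone marrow 2 of the 5 were called higher, against 2.75% of all genes (2.24% higher and 0.512% lower). Between spleen and blood 0 of the 5 were called by edgeR, 1 at an unadjusted p under 0.05, and 0 by DESeq2, while over all genes 0.0512% were called, 0.00% higher and 0.0512% lower. Age and run were the same split, so that they cannot be told apart. The calls in blood against bone marrow rested on both blood libraries: without blood of run 1 only Dusp1 was called (Dusp5 0.175, Dusp6 0.329 and Dusp16 0.0621), and without blood of run 2 none was, with adjusted p 0.0576 for Dusp1. Without bone marrow of run 2, Dusp6 lost its call (adjusted p 0.0524). Each of these fits left 1 residual degree of freedom. Without the run as a block no member was called in any comparison, with adjusted p 0.161 for Dusp1, 0.172 for Dusp16, 0.193 for Dusp6 and 0.250 for Dusp5 in blood against bone marrow, and 0.630 for Dusp1 and 0.582 for Dusp16 in spleen. In spleen against bone marrow the members called went from 2 to 0 without either blood library and to 1 without spleen of run 2 (the call of Dusp16 was lost), and rose to 4 without bone marrow of run 1 or without spleen of run 1. DESeq2 called 4 and 1 members in blood and in spleen against bone marrow, all higher. Of all 7809 genes it called 654 higher and 527 lower in blood, and 230 higher and 36 lower in spleen.

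Neutrophils lose transcripts of secondary granule proteins as they mature, and these moved with the same comparisons, while their part in the results was not tested beyond the values that follow. Camp, Ngp, Ltf and Lcn2 summed to 102776 and 74364 CPM in bone marrow, 26057 and 4347 CPM in blood and 102262 and 16722 CPM in spleen (runs 1 and 2). Spleen of run 1, the spleen pool with the lower Dusp1, thus resembled marrow in these transcripts. Dusp1 was higher in cells with few of these transcripts in all 6 libraries. In cells with over 5% of UMIs from the 4 genes, Dusp1 stood at 9.5 and 35.5 CPM in bone marrow, 33.1 and 139 CPM in blood and 22.5 and 45.6 CPM in spleen. In cells with under 1%, it stood at 182 and 521 CPM, 1073 and 1925 CPM, and 862 and 1629 CPM. Cells under 1% made up 24.7% and 35.6% of the chosen cells in bone marrow, 87.1% and 98.5% in blood and 52.0% and 95.9% in spleen.

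Dusp6 differed less between these cells, at 10.7 to 43.5 CPM over 5% and 28.9 to 255 CPM under 1%. With cells under 1% alone in each library, the log2 fold change of blood against bone marrow was 1.87 for Dusp1 (edgeR adjusted p 0.00105), 2.65 for Dusp16 (adjusted p 0.00976) and 0.98 for Dusp6 (adjusted p 0.0418), and Dusp5 was not called at 1.41 (adjusted p 0.121). Spleen against bone marrow gave 1.59 for Dusp1 (adjusted p 0.00289), 2.85 for Dusp16 (adjusted p 0.00919) and 1.10 for Dusp6 (adjusted p 0.0317). The Dusp1 differences between tissues were smaller among these cells and kept their calls.

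**Figure D3:**
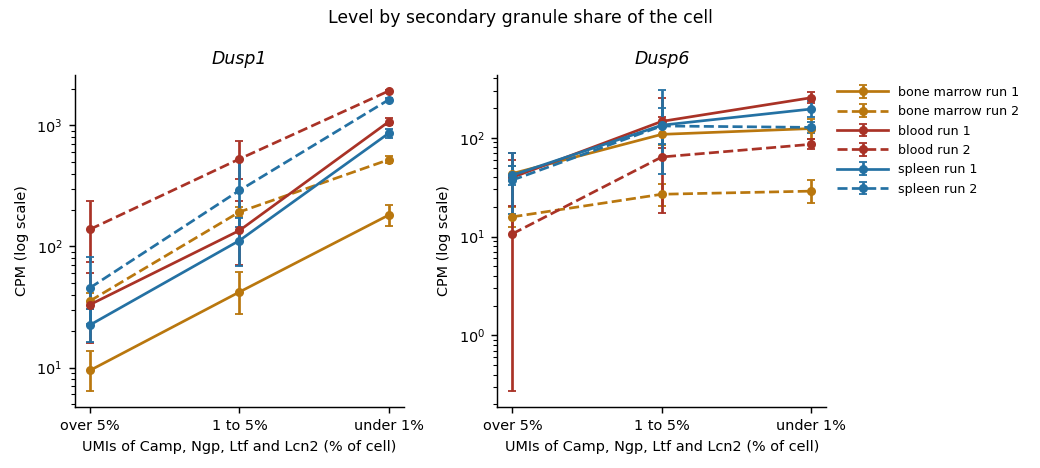
Level of Dusp1 (left) and Dusp6 (right) in healthy cells grouped by the share of their UMIs from Camp, Ngp, Ltf and Lcn2 (CPM, log axis, exact Poisson 95% intervals); colours mark tissues, solid lines run 1 and dashed lines run 2. From left (over 5%) to right (under 1%) Dusp1 climbs in all 6 libraries, from 9.5 to 139 CPM up to 182 to 1925 CPM, and Dusp6 rises by a smaller factor.

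Free RNA in the droplets was read from cells of blood run 2 with at least 30% haemoglobin UMIs, red cells that should lack these genes. In 722 such cells Dusp1 measured 108 CPM against 1852 CPM in the neutrophils, Dusp6 5.20 against 83.6 CPM, Dusp5 3.78 against 30.2 CPM, and Dusp16 0.94 against 25.3 CPM. Dusp2 measured 1.89 CPM (4 UMIs, 95% interval 0.51 to 4.84) against 4.88 CPM (17 UMIs, 2.84 to 7.82), so that its level in these neutrophils was not told apart from free RNA. In blood run 1 only 34 such cells were found. They held 1 UMI of Dusp1 (8.41 CPM against 781 CPM in the neutrophils) and 2 of Dusp6 (16.8 against 200.0 CPM). Dusp5 had 1 UMI (8.41 CPM, 95% interval 0.21 to 46.8, against 19.1 CPM). Dusp2 and Dusp16 had 0 UMIs, with the upper end of the exact 95% interval at 31.0 CPM. Dusp2, Dusp5 and Dusp16 were thus not told apart from free RNA in that library. The background was read in these 2 of the 6 healthy libraries. In blood run 2, after thinning each cell to 500 UMIs, 4.16% of the haemoglobin cells and 57.6% of the neutrophils held a Dusp1 UMI. The unthinned shares were 23.4% (median 2753 UMIs) and 74.1% (median 826 UMIs). In the same order they were 1.11% and 2.70% for Dusp5 and 1.52% and 7.27% for Dusp6. For Dusp16 they were 0.28% and 2.34%, and for Dusp2 0.42% and 0.41%. The totals of haemoglobin cells include their haemoglobin UMIs, which dilutes free RNA in CPM and in thinned cells. Both measures may thus understate the background per droplet. B cell markers moved with the tissues too. The 6 listed summed to 1.88 and 142 CPM in bone marrow, 13.2 and 285 CPM in blood and 11.5 and 739 CPM in spleen, with Ighm and Ighd at 0 in all 3 libraries of run 1, and 2 of the 5 tested were called higher in blood and 3 in spleen than in bone marrow by edgeR. Erythroid markers summed to 30348 CPM in blood run 2 and to at most 912 CPM in the other healthy libraries, and platelet markers to 97.8 and 154 CPM in blood and at most 3.51 CPM in marrow and spleen. T and NK cell markers summed to 35.9 to 206 CPM, highest in spleen run 2, and monocyte and macrophage markers to 269 to 1390 CPM, highest in bone marrow run 1, with 2 of 8 tested called higher and 3 lower in blood than in bone marrow. With cells holding lymphoid markers left out, the number of members called was again 4 in blood and 2 in spleen against bone marrow.

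The MAP kinase pathway around the members was counted next, and its shares called in blood against bone marrow lay near the 21.7% of all genes. Of 25 tested kinases of the cascade (MAP kinases and the kinases above them), 5 were called higher and 1 lower in blood than in bone marrow, with a median log2 fold change of 0.25 against -0.02 over all genes. The 3 largest were Map3k5 (1.74, the stress kinase ASK1), Mapk13 (-1.40, a p38 isoform) and Map3k3 (1.30). Of 10 effector kinases 1 was called higher, Mknk2 (1.38), and 2 lower, Mapkapk3 (-1.59) and Rps6ka1 (-1.05). Among 11 tested inhibitors outside the family, Spry2, a feedback inhibitor of receptor tyrosine kinase signalling, was called higher (3.01) and Ptpn7, a tyrosine phosphatase of MAP kinases, lower (-2.67). Spry2 was also called in spleen against bone marrow by edgeR (2.23), though not by DESeq2, and there 0 kinases of either list were called by edgeR or by DESeq2. At an unadjusted p under 0.05, 4 cascade kinases were higher there and 1 effector kinase was higher and 1 lower.

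Immediate early genes, whose transcription follows MAP kinase activity within minutes and does not need new protein, moved with Dusp1. Of 15 tested, 12 were called higher in blood than in bone marrow, with a median log2 fold change of 2.59, led by Atf3 (5.29), Jun (3.78) and Nr4a1 (3.47). In spleen against bone marrow 6 were called higher, with a median of 1.32, and Atf3 (4.86), Jun (3.19) and Nr4a1 (3.17) led again. The 3 heat shock and chaperone genes tested of 6 listed as stress genes of dissociated cells had a median log2 fold change of 0.43 in blood and 0.16 in spleen, and 0 were called by edgeR, 0 at an unadjusted p under 0.05 and 0 by DESeq2. What cell handling added to these levels was not tested. Of the other 17 family genes listed, 4 could be tested in healthy tissues, and 0 were called in any comparison by edgeR, 0 at an unadjusted p under 0.05 and 0 by DESeq2. Dusp11, an RNA phosphatase gene of the family, lay between 41.9 and 71.0 CPM in the 6 libraries.

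The second comparison was within the inflammation library, and there each condition was 1 pool, so that no test between conditions was possible and intervals cover counting error only. A gene was counted as past 2-fold if its CPM differed at least 2-fold between a pair of pools that averaged at least 20 CPM. The median gene was lower in all 4 inflamed pools than in healthy blood of this library, by a log2 ratio of -0.42 in the joint, -0.36 in arthritic blood, -0.90 in the peritoneum and -0.86 in the lung. Ratios in CPM are given first and, where the scaling matters, those after TMM scaling, which sets a trimmed mean of gene ratios to 1. The 3 pools of healthy blood, read across both reagent versions, give a sense of the spread between pools: from lowest to highest they differed 2.91-fold in Dusp1, 2.18-fold in Dusp2, 1.58-fold in Dusp5, 2.39-fold in Dusp6 and 4.59-fold in Dusp16.

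Dusp2 and Dusp16 were the members that differed most after IL-1β. Dusp2 measured 8.00 CPM in healthy blood (9 UMIs), 6.31 CPM in arthritic blood, 18.9 CPM in the arthritic joint, 702 CPM in the peritoneum and 93.9 CPM in the lung. The peritoneum and the lung stood clear of the other pools. The ratio to healthy blood was 87.8 in the peritoneum (95% interval 46.0 to 193) and 11.7 in the lung (5.98 to 26.3), and lung and peritoneum differed from each other by 7.48-fold (6.17 to 9.14). The width of the first intervals comes from the 9 UMIs in healthy blood. With TMM scaling the ratios to healthy blood were 165 and 21.9. With cells holding lymphoid or monocyte markers left out, lung over peritoneum went from 0.134 to 0.218 (0.164 to 0.289), a smaller difference.

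Dusp16 measured 33.8 CPM in healthy blood, 38.2 CPM in arthritic blood, 123 CPM in the joint, 862 CPM in the peritoneum and 434 CPM in the lung. All 3 inflamed sites lay above both blood pools. Its ratio to healthy blood was 25.5 (18.4 to 36.3) in the peritoneum, 12.8 (9.24 to 18.3) in the lung and 3.65 (2.64 to 5.18) in the joint. The ratio in the joint was smaller in CPM than the 4.59-fold spread of Dusp16 over the 3 healthy blood pools. With TMM scaling the ratios were 48.0 in the peritoneum, 24.0 in the lung and 5.36 in the joint.

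Dusp5 was the member that differed most in the arthritic joint. It measured 27.6 CPM in healthy blood, 31.2 CPM in arthritic blood, 283 CPM in the joint, 63.6 CPM in the peritoneum and 62.1 CPM in the lung. Joint neutrophils were 10.3-fold (7.23 to 15.2) above healthy blood and 9.09-fold (7.32 to 11.4) above blood of the arthritic mice. The peritoneum and the lung were above healthy blood by 2.31-fold (1.47 to 3.69) and 2.25-fold (1.47 to 3.52), or 4.34-fold and 4.21-fold with TMM scaling, which gave 15.1 in the joint, and lung over peritoneum was 0.98 (0.69 to 1.38). With cells holding lymphoid or monocyte markers left out, the ratio to healthy blood was 1.91 (0.91 to 4.06) in the peritoneum and 1.52 (0.80 to 3.03) in the lung, no longer past 2-fold at either site, and 7.71 (4.66 to 13.8) in the joint.

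Dusp6 was the 1 member past 2-fold on the lower side of healthy blood. It measured 188 CPM in healthy blood, 142 CPM in arthritic blood, 164 CPM in the joint, 26.5 CPM in the peritoneum and 53.0 CPM in the lung. Healthy blood was 7.07-fold (4.66 to 11.2) above the peritoneum and 3.54-fold (2.69 to 4.71) above the lung. Against the median gene, Dusp6 was at a log2 ratio of -1.92 in the peritoneum and -0.97 in the lung. With TMM scaling its ratio was 0.27 in the peritoneum and 0.53 in the lung, where it no longer passed 2-fold. In the joint its CPM ratio of 0.87 (0.76 to 1.01) became 1.29 with TMM scaling, so that its direction there depends on the scaling. With cells holding lymphoid or monocyte markers left out, the ratio to healthy blood was 0.16 in the peritoneum (0.073 to 0.33) and 0.16 in the lung (0.092 to 0.27), and lung over peritoneum went from 2.00 to 0.98 (0.42 to 2.45), from 19 and 9 UMIs.

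Dusp1 was high in all 5 pools and passed 2-fold nowhere in CPM. It measured 2276 CPM in healthy blood, 1736 CPM in arthritic blood, 3329 CPM in the joint, 2397 CPM in the peritoneum and 3820 CPM in the lung. Its ratio to healthy blood was 1.46 (1.41 to 1.52) in the joint, 1.68 (1.60 to 1.76) in the lung and 1.05 (0.995 to 1.12) in the peritoneum, all smaller than the spread over healthy blood pools. With TMM scaling these became 2.15, 3.13 and 1.98, so that the joint and the lung then passed 2-fold. The spread over healthy blood pools was taken in CPM only. In arthritic blood the ratio was 0.76 (0.73 to 0.80) in CPM and 1.05 with TMM scaling, on the other side of 1.

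**Figure D4:**
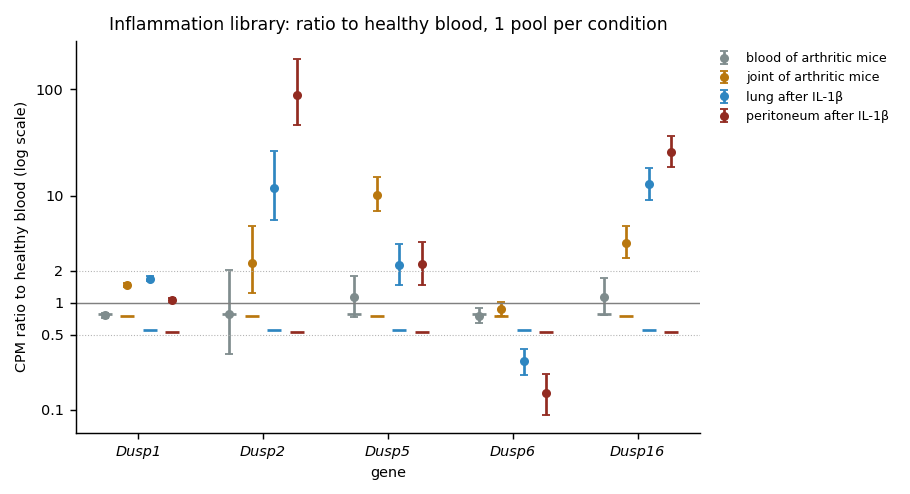
CPM ratio to healthy blood of the same library (log axis) for 5 genes in the 4 inflamed pools, with exact 95% intervals for counting error; short dashes mark the ratio of the median gene and dotted lines mark 2-fold. Dusp2 in the peritoneum lies at 87.8, Dusp5 in the joint at 10.3 and Dusp6 in the peritoneum at 0.14.

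In numbers, 4 of the 5 members with UMIs were past 2-fold in the peritoneum, 3 higher and 1 lower, against 11.8% of genes higher and 46.2% lower. In the lung the count was again 3 higher and 1 lower, against 12.1% and 45.0%. Without cells holding lymphoid or monocyte markers it was 3 members at both sites, Dusp5 being lost. Lower levels past 2-fold in CPM were thus common, and the ratio of Dusp6 stood at percentile 4.53 of all genes compared in the peritoneum and 19.8 in the lung. In the joint 2 members were higher (Dusp5 and Dusp16), against 9.96% of genes higher and 20.1% lower, and in arthritic blood 0 were past 2-fold, against 0.591% and 5.37%. These 4 comparisons share the healthy blood pool. Lung against peritoneum had 1 member past 2-fold, Dusp2 on the lower side, against 7.68% of genes higher and 7.80% lower, with Dusp16 (0.503) and Dusp6 (2.00, rounded from just under 2) at the edge. Joint against blood of the arthritic mice had 2 higher, Dusp5 and Dusp16 (3.22, 2.63 to 3.98), against 13.1% higher and 7.16% lower. Dusp1 was at 1.92 (1.86 to 1.98) there in CPM and at 2.05 with TMM scaling, which made 3 members past 2-fold. Against healthy blood the same scaling gave 3 members higher and 1 lower in the peritoneum, and 4 higher and 0 lower in the lung. In the joint it gave 3 higher and 0 lower. Shares of all genes past 2-fold were taken in CPM only, so counts under TMM have no such share beside them. Dusp2 was not counted in the comparisons of the joint, since its mean was under 20 CPM. Its ratio was 2.37 (1.22 to 5.26) to healthy blood and 3.00 (1.83 to 5.26) to arthritic blood, or 1.29 (0.57 to 3.62) and 1.85 (0.86 to 4.74) with cells holding lymphoid or monocyte markers left out.

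The share of cells with a UMI separated genes present in most cells from those in few. With every cell thinned to 1000 UMIs, which left 231 to 2734 cells per pool, Dusp1 was seen in 75.4% to 82.9% of cells in all 5 pools. Cells with fewer UMIs were left out, in unequal shares. They were 155 of 509 in healthy blood, 140 of 814 in arthritic blood and 123 of 2857 in the joint. In the peritoneum they were 61 of 292 and in the lung 94 of 380. Dusp16 was seen in 52.8% of peritoneal cells (exact 95% interval 46.2 to 59.4) and 31.5% of lung cells (26.1 to 37.2), against 4.80% in healthy blood (2.82 to 7.58). Dusp2 was seen in 43.3% of peritoneal cells (36.8 to 49.9), 6.29% of lung cells (3.77 to 9.76) and 0.85% of healthy blood cells (0.18 to 2.46). Dusp5 was seen in 21.7% of joint cells (20.2 to 23.3) and in 3.12% to 6.06% elsewhere. Unthinned, the shares were 83.2% for Dusp16 and 55.8% for Dusp2 in the peritoneum, and 47.2% for Dusp5 in the joint. Nearly all cells of this library were annotated as neutrophils (4 of 4856 were not), so that free RNA could not be read from another cell type.

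**Figure D5:**
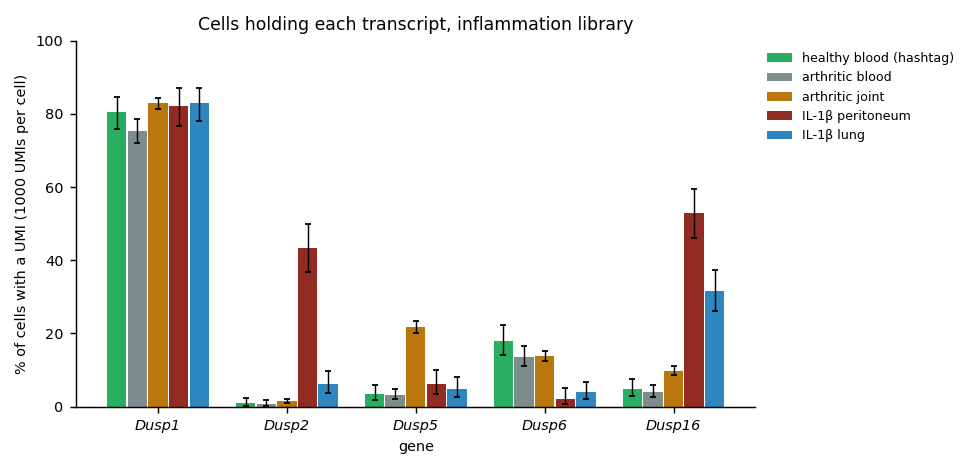
Share of cells with at least 1 UMI of each gene after thinning to 1000 UMIs per cell, in the 5 conditions of the inflammation library, with exact binomial 95% intervals for counting error. Dusp1 lies between 75.4% and 82.9% in every condition, Dusp16 reaches 52.8% and Dusp2 43.3% in the peritoneum, and Dusp5 reaches 21.7% in the joint.

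Within the peritoneum, the overlap of Dusp2 and Dusp16 was counted in a separate random thinning, so that its counts differ slightly from the shares above. Of 231 thinned cells 95 held Dusp2, 121 held Dusp16 and 52 held both. Dusp16 was in 54.7% of cells with Dusp2 and in 50.7% of cells without it. Before thinning, the 10% of peritoneal cells with most Dusp2 UMIs held 44.0% of them, and for Dusp16 this was 28.0%. In the lung 10.8% of cells held any Dusp2. Ranked for each gene on its own, the top 10% of lung cells held 97.6% of the Dusp2 UMIs and 34.4% of the Dusp16 UMIs.

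The authors' annotation gave each cell the name of the closest ImmGen reference population. In the peritoneum, 163 cells named GN.Thio.PC held 1008 CPM of Dusp2 and 1093 CPM of Dusp16, and 101 cells named GN.Arth.SynF held 570 and 794 CPM. In the lung, 74 cells named GN.Thio.PC held 89.6 and 796 CPM, and 275 named GN.Arth.SynF held 101 and 425 CPM. The order for Dusp2 was thus not kept there. In the joint, Dusp5 was at 316 CPM in 2260 cells named GN.Arth.SynF and at 205 CPM in 245 cells named GN.Thio.PC. It was at 90.5 CPM in 96 joint cells named GN.UrAc.PC and at 89.0 CPM in 255 named GN.Bl. GN.Bl was the name given to 353 of the 509 healthy blood cells, where Dusp5 was at 29.5 CPM. These names rest on each cell's transcripts, so the differences between them are a description only.

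Secondary granule transcripts and markers of other cells also differed between these pools. The 4 granule genes summed to 838 CPM in healthy blood, 860 CPM in the joint, 2264 CPM in arthritic blood, 4374 CPM in the lung and 11907 CPM in the peritoneum. Nearly all of each sum was Lcn2, at 813, 835, 2195, 4096 and 11753 CPM in the same order, while Camp, Ltf and Ngp stood at 18.0, 33.9 and 103 CPM in the peritoneum, so that the share of granule transcripts in this library is in the main a share of Lcn2. Among cells with under 1% of UMIs from them, the peritoneum held 668 CPM of Dusp2 and 814 CPM of Dusp16, against 702 and 862 CPM over all its cells, and the ratio of Dusp6 to healthy blood was 0.21 in place of 0.14. Monocyte and macrophage markers, 6 to 10 of 10 with a UMI, summed to 282 to 388 CPM in the 5 pools, with Ccr2 at 0 in all but the joint. Among them Adgre1, a macrophage marker, stood at 44.4 CPM in healthy blood, 38.2 in arthritic blood, 32.1 in the joint, 157 in the peritoneum and 23.5 in the lung, highest in the same pool as Dusp2 and Dusp16. Its part in their levels was not tested. Csf1r was past 2-fold lower in the joint (0.484) and the lung (0.414), and Ly6c2 past 2-fold higher in the joint (2.47), arthritic blood (2.74) and the lung (2.92). B cell markers summed to 208 CPM in healthy blood, all from Ighm, and to 22.0 to 124 CPM in the other pools. T and NK cell markers summed to 12.6 to 24.0 CPM, with Cd3e, Trbc2, Cd8a and Cd4 at 0 in every pool. With cells holding any of these markers left out, 113 of 292 peritoneal cells and 234 of 509 healthy blood cells remained, and the ratio of peritoneum to healthy blood was 42.6 (19.2 to 118) for Dusp2 and 47.3 (24.5 to 105) for Dusp16. For Dusp16 the same step gave 21.9 (11.4 to 48.4) in the lung, 5.96 (3.12 to 13.1) in the joint and 2.06 (0.96 to 4.93) in arthritic blood. The step also kept shallower cells, with a median of 890.5 UMIs in place of 2527 in healthy blood and 2296 in place of 3475.5 in the peritoneum, and left 6 UMIs of Dusp2 and 9 of Dusp16 in healthy blood.

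Around the members, the pathway differed unevenly between inflamed sites. Of the MAP kinase effector kinases, Mapkapk2, the kinase that p38 uses to stabilise cytokine messages, was higher at 3 sites, at 96.0 CPM in healthy blood, 79.1 in arthritic blood, 389 in the joint, 1411 in the peritoneum and 682 in the lung. Its ratio to healthy blood was 14.7 in the peritoneum, 7.10 in the lung and 4.06 in the joint. Of 19 cascade kinases measured in the peritoneum, 4 were past 2-fold higher and 9 lower, with a median log2 ratio of -0.75 against -0.90 over all genes, among them Map3k8 (13.3-fold higher) and Map3k1 (0.194). In the lung 2 of 19 were higher and 9 lower, among them Mapk14 (0.136) and Map3k8 (5.41). The counts on the lower side lay near the shares of all genes, 46.2% in the peritoneum and 45.0% in the lung, as did that on the higher side in the lung (12.1% of all genes). Map3k8 encodes TPL2, which links inflammatory receptors to ERK. In the joint 1 of 20 was higher, Map2k4 (2.73), and 4 were lower, among them Map3k3 (0.356) and Mapk14 (0.369), against 9.96% and 20.1% of all genes. With TMM scaling the cascade kinases past 2-fold were 6 higher and 4 lower in the peritoneum, 4 higher and 6 lower in the lung, and 1 higher and 0 lower in the joint.

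Effector kinases past 2-fold were 3 higher and 1 lower of 8 in the joint, 2 and 4 of 6 in the peritoneum and 2 and 3 of 6 in the lung, or 4 and 0, 2 and 1, and 2 and 2 with TMM scaling. Mapkapk3, a further substrate kinase of p38 chosen after its values were seen, was higher at the same 3 sites as Mapkapk2, at 2.36 in the joint, 3.49 in the peritoneum and 3.35 in the lung. Among the other effectors, Mknk2 (0.134) and Mknk1 (0.269) were lower in the peritoneum, Mknk1 (0.173) and Rps6ka1 (0.189) were lower in the lung, and Rps6ka2 (2.86) was higher and Mknk1 (0.391) lower in the joint. With TMM scaling Mknk1 was at 0.51 in the peritoneum and 0.58 in the joint, no longer past 2-fold. Of the inhibitors outside the family, Rasa2, a Ras GTPase-activating protein gene, was 9.05-fold higher in the joint and 5.81-fold higher in the lung. In the peritoneum 4 of 7 were lower, led by Pebp1 (0.245), Rasa1 (0.428) and Ppm1b (0.444), and in the lung Rasa1 was at 0.284. With TMM scaling only Pebp1 (0.46) stayed past 2-fold lower in the peritoneum, where 46.2% of all genes were lower in CPM, and Rasa1 was at 0.53 in the lung. The other 17 genes of the dual-specificity family contributed 1 or 2 genes above the level filter at each site, of which 0 were past 2-fold. Because the filter uses the mean of a pair, it removes low genes that fell. Dusp7, an ERK phosphatase gene, went from 26.7 CPM (30 UMIs) in healthy blood to 2.12 CPM (2 UMIs) in the peritoneum and 0 UMIs in the lung, and Dusp18 from 17.8 CPM (20 UMIs) to 0 UMIs at both sites. Both were chosen after their values were seen.

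Immediate early genes summed to 7004 CPM in healthy blood, 6116 CPM in arthritic blood, 11501 CPM in the joint, 12074 CPM in the peritoneum and 13734 CPM in the lung. In the joint 10 of 16 were past 2-fold higher and 0 lower, with a median log2 ratio of 1.31 against -0.42 over all genes, led by Egr2 (44.3), Egr1 (33.4) and Nr4a1 (5.65). In the peritoneum 6 were higher and 3 lower, led by Egr2 (15.1), Ier3 (14.7) and Nr4a1 (14.3), and in the lung 5 were higher and 1 lower, led by Ier3 (29.8), Egr1 (29.1) and Egr2 (20.7). In arthritic blood Jun (0.492) and Nr4a1 (0.494) were lower and none was higher, and with TMM scaling both were at 0.68 and none was past 2-fold. The same scaling gave 12 higher and 0 lower in the joint, 11 and 1 in the peritoneum and 10 and 1 in the lung. The 6 stress genes of dissociated cells summed to 370 CPM in healthy blood, 385 CPM in arthritic blood, 354 CPM in the joint, 522 CPM in the peritoneum and 596 CPM in the lung. Of the 3 above the level filter, 0 were past 2-fold against healthy blood in CPM, and with TMM scaling 2 were higher in the joint (Dnajb1 and Hsp90aa1), the peritoneum and the lung (Hsp90aa1 and Hspa8 at both). Hsp90aa1 was at 2.02 in the joint against arthritic blood in CPM. Their part in the levels of the phosphatases and of immediate early genes was not tested. Lung against peritoneum showed Nr4a1 at 0.0803, Egr1 at 6.25 and Atf3 at 2.53. Nr4a1 thus had the same order of these sites as Dusp2, peritoneum above lung, and Egr1 the reverse.

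The genes whose log2(CPM + 1) followed each member most closely over the 11 pools, among 2045 genes with a mean of at least 50 CPM, differed between members. Dusp1 was followed by Il1b (Pearson r 0.987), Il13ra1 (0.985) and Tpd52 (0.984), Dusp2 by Cdc42ep2 (0.976), Birc3 (0.973) and Nfkbia (0.970), and Dusp16 by Pim1 (0.988), Hspa5 (0.988) and Mefv (0.987). Dusp5 was followed by Csf1 (0.963), Sertad1 (0.951) and Btg2 (0.951), and Dusp6 by Ubxn1 (0.95), Borcs6 (0.922) and Haus8 (0.905). The 11 pools share mice, runs and reagent versions, so that these values only describe likeness of level.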

How the data were processed

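The values used were raw counts of UMIs for each gene symbol in each cell, which the authors made with Cell Ranger on mm10 and deposited before their own cell filters; the inflammation table holds only cells the authors called hashtag singlets. The deposited table of cells gave its hashtag conditions and ImmGen names. Genes not listed in a run 1 table, where every listed gene has a UMI, were taken as 0. Counts were summed per pool. Healthy tissues were compared in edgeR 4.0.16 (R 4.3.3) by the quasi-likelihood F test with TMM factors, the filterByExpr filter and the run as a block, since by the study's methods 1 set of mice gave all tissues of each run. Between tissues, the differences of run 2 minus run 1 correlated at 0.550 to 0.631 over 7809 genes. Adjusted p-values are Benjamini-Hochberg values over all 7809 genes, called under 0.05. The fit was first tested on simulated data. Conditions of the inflammation library, 1 pool each, were compared by CPM ratio with an exact conditional binomial interval and no test; intervals and limits cover counting error only. No doublet caller was run, hashtag doublets having been left out by the authors, and free RNA was not removed. Alternatives were DESeq2 1.42.0 and its size factors, no filter on low counts, no block, other cell filters and leaving out each library.

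The 6 genes and all lists were chosen with earlier results of these data known. Named were all 6 members in each comparison, other family genes past the threshold, the 3 genes with the largest change among those past it in each other list, and the 3 genes most like each member; some items that this rule or a marker list would name are not reported here. Labels and methods differ on the sequencer and on the joint that was lavaged.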

Additional observations from a re-analysis of the deposited data

Results flagged for a closer look

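Dusp2 was higher in cells that the neutrophil filter left out than in the neutrophils of the same library. In cells with most marker UMIs from T and NK cells it measured 213 CPM in blood run 1 (27 cells), 399 CPM in spleen run 1 (26 cells), 41.2 CPM in bone marrow run 2 (35 cells) and 134 CPM in spleen run 2 (713 cells). In cells with most marker UMIs from B cells it measured 96.7 CPM in blood run 2 (76 cells), 300.1 CPM in bone marrow run 2 (279 cells) and 177 CPM in spleen run 2 (1417 cells). The neutrophils of those libraries held 0.74 to 11.2 CPM. These cells were outside every comparison of the report.

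Dusp1 went in opposite directions at different sites against healthy blood of the same library, at 1.46 times its CPM in the joint of arthritic mice and 1.68 times in the lung after IL-1β, but 0.76 times in blood of arthritic mice. The difference was not tested, since each condition was 1 pool, and under TMM scaling the value in arthritic blood was 1.05.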

How the results depend on the processing

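Genes called in blood against bone marrow, spleen against bone marrow and spleen against blood numbered 1693, 215 and 4. Without the replicate block they numbered 164, 0 and 0, with 0 members called (edgeR); with cells low in granule transcripts alone 640, 535 and 9. Leaving out 1 library at a time gave 0 to 2626, 0 to 1250 and 0 to 245 genes and 0 to 4 members in each comparison with bone marrow; no gene was called between blood and marrow without blood of run 2, nor in either spleen comparison without either blood library. Spleen against bone marrow called 115 genes with the mitochondrial and gene number filters, and DESeq2 called 1 member. Spleen against blood called 28 genes with DESeq2, 18 without a filter on low counts and 19 with at least 10% S100a8 and S100a9. The pairing by run changed no call between spleen and blood among members. Log2 fold changes that turned were those of Dusp2 in blood against bone marrow (-0.074 with S100 at least 1%) and in spleen against bone marrow (-0.65 to 1.65 with 1 library left out). In spleen against blood, Dusp2 turned to 0.42 without the block, to 0.88 with S100 at least 1% and to -1.53 to 0.79 with 1 library left out, Dusp6 to 0.12 in granule-low cells and to -0.97 to 0.41 with 1 library left out, and Dusp16 to 0.048 with S100 at least 10% and 0.20 in granule-low cells. None of these was called. In the inflammation library, 1 member was past 2-fold in arthritic blood once cells with lymphoid or monocyte markers were left out (Dusp16), and 3 in place of 4 in the peritoneum and in the lung (without Dusp5). In lung against peritoneum 2 members were past 2-fold under each of 6 settings: equal weight per cell, mitochondrial and gene number filters, all singlets, S100 at least 3%, lymphoid or monocyte markers left out, and TMM. TMM gave 3 members in place of 2 in both comparisons of the joint. In the lung against healthy blood it gave 4 higher and 0 lower in place of 3 and 1. The share of all genes past 2-fold under TMM was not counted. Granule-low cells in this library were an alternative chosen after seeing the data. The cause of these changes was not tested. Genes under a few CPM, such as Dusp2 in healthy tissues, were limited by depth.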

Other observations

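Other cells in the same libraries held the members in other proportions. In 97 excluded cells of blood run 1 with most marker UMIs from monocytes and macrophages, Dusp6 measured 207 CPM and Dusp1 92.2 CPM, whereas the neutrophils of that library held 200.0 CPM of Dusp6 and 781 CPM of Dusp1. In 1417 excluded cells of spleen run 2 with most UMIs from B cell markers, Dusp2 measured 177 CPM, Dusp1 82.4 CPM and Dusp6 36.1 CPM. Dusp4 had 3 UMIs in these cells and 4 UMIs in 713 cells with most UMIs from T and NK cell markers, and none in the chosen neutrophils of any pool.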
